A study of Mus musculus with 6 samples.

Results

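The genes described here are regulators of apoptosis and targets of the transcription factor p53, measured in mouse intestinal epithelial cells after loss of GGTase-I, the enzyme that attaches geranylgeranyl lipids to proteins. They were taken from a list of 39 symbols, each read from 1 probe set, the one with the highest mean over the 6 arrays among those that the platform annotation gives to that symbol alone. Of the 39, 34 had such a probe set among the 18193 genes of the table, and 30 of these lay above 5 (log2) on at least 3 arrays and were tested. Bik, Tnfrsf10b, Phlda3 and Eda2r read at or below 5 on all 6 arrays and were not tested. Bcl2a1b was read only by probe sets annotated to several genes of its family, and Bax, Trp53, Gdf15 and the entry Perp1 had no probe set under a single matching symbol here, so these 5 were not analysed here.

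The deficient group was 3 mice with a floxed GGTase-Iβ gene (Pggt1b, the catalytic beta subunit) and the VillincreERT2 transgene, a tamoxifen-inducible recombinase driven by the promoter of an epithelial gene. The control group was 3 mice with the same floxed gene and no such transgene. All 6 were of mixed 129/SV and C57BL/6 background and were given 1 mg tamoxifen on each of 3 days, and epithelial cells were collected on day 6 counted from the first dose, 1 array per mouse. Because controls lacked the transgene, the deletion and the recombinase itself cannot be told apart. The labels give no age, sex, gut segment or processing batch.

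Apoptosis through mitochondria is set by the BCL2 family. BH3-only proteins such as BIM, PUMA and NOXA neutralise the survival members or activate the pore formers BAX and BAK, and the pores release cytochrome c, which assembles APAF1 and caspase-9 into the apoptosome. Death receptors of the TNF receptor family start a second route through caspase-8. The transcription factor p53 feeds into both by inducing cell cycle inhibitors, BH3-only genes and its own ubiquitin ligase MDM2, and in intestinal crypts it is best known for the response to radiation. NF-κB opposes death by inducing inhibitors of apoptosis and its own feedback inhibitors.

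The arrays were alike in range, with 35.6% to 36.5% of 45101 probe sets above 5. The targeted gene did not separate the groups: Pggt1b read 9.75, 8.88 and 8.83 in the deficient arrays and 9.30, 9.55 and 9.33 in the controls (log2 change -0.24 ± 0.27 SE, limma adjusted p = 0.678), and the labels do not say whether its probe set lies in the deleted part. All 10 epithelial markers listed (among them Epcam, Cdh1 and Vil1) read above 5 on all 6 arrays, so the labelled cell type was present. The preparations also held lymphocyte RNA, and less of it in the deficient group. All 13 tested markers of T cells and intraepithelial lymphocytes were lower there, 11 of them past the test, and their mean level relative to the control mean was between -4.03 and -2.55 on the deficient arrays and between -0.06 and 0.09 on the controls. Of the 17 markers measured, 6 read above 5 on all 6 arrays, and Cd2, Cd247 and Cd8b1 read at or below 5 on all arrays. Cd3d, Cd7 and Il2rb lay above 5 on control arrays alone, so they met the filter only through the group where they were high. Cd3e, Cd3g, Cd8a and Nkg7 also lay below 5 on some deficient arrays. All 9 tested myeloid markers were lower by mean, 4 of them past the test, among them Itgax, which met the filter through the controls alone. Of 5 tested markers from a list of stromal, muscle and endothelial genes 0 passed. Col1a2, Col3a1 and Vim had log2 changes of -1.69, -1.74 and -1.07 with lower values in every deficient array. Acta2 and Dcn were slightly higher by mean, at 0.06 and 0.13, with overlapping groups. The endothelial markers Pecam1, Cdh5 and Kdr read at or below 5 on all arrays. In such bulk samples, fewer cells of a type and less RNA per cell cannot be told apart.

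None of the 30 tested members passed the test between deficient and control preparations. The median log2 change was -0.12, beside -0.04 over all 8893 genes tested, and 1 member, the survival gene Bcl2, differed by more than 1 on the log2 scale. Limma called 186 of all genes (2.09%) at a Benjamini-Hochberg adjusted p under 0.05, 10 higher (0.112%) and 176 lower (1.98%) in the deficient group. The smallest adjusted p among the members was 0.219 (Xiap). At an unadjusted p under 0.05 there were 5 members, Xiap and Aen higher in the deficient group and Casp9, Bmf and Bcl2 lower. That is 16.7% of the members against 16.9% of all genes (5.6% higher and 11.3% lower), a share near the background with all 6 arrays. Without deficient replicate 1 it was 9 members, or 30%, against 14.2% of all genes, and without control replicate 1 it was 1 member, or 3.33%, against 15.8%. The 3 deficient values lay wholly above or wholly below the 3 control values for 6 members, or 20.0%, against 25.7% of all genes (9% higher and 16.7% lower). Apaf1 and Xiap were the 2 higher ones, and Casp6, Casp9, Bmf and Birc2 the 4 lower ones. Bmf entered the test only because its control arrays lay above 5, which favours a lower value in the deficient group. Aen lay above 5 on 3 deficient arrays and 1 control, so it met the filter through the deficient group, which favours a higher value there.

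The precision of the comparison differed between members. For 15 of the 30, or 50%, beside 64.6% of all genes tested, the 95% interval of the fitted change lay inside a 2-fold change in either direction. For these a larger change of the probe set used was outside the interval. For the others a 2-fold change stayed within the interval. In the plot of fitted changes the intervals of 25 members cross 0.

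**Figure D1:**
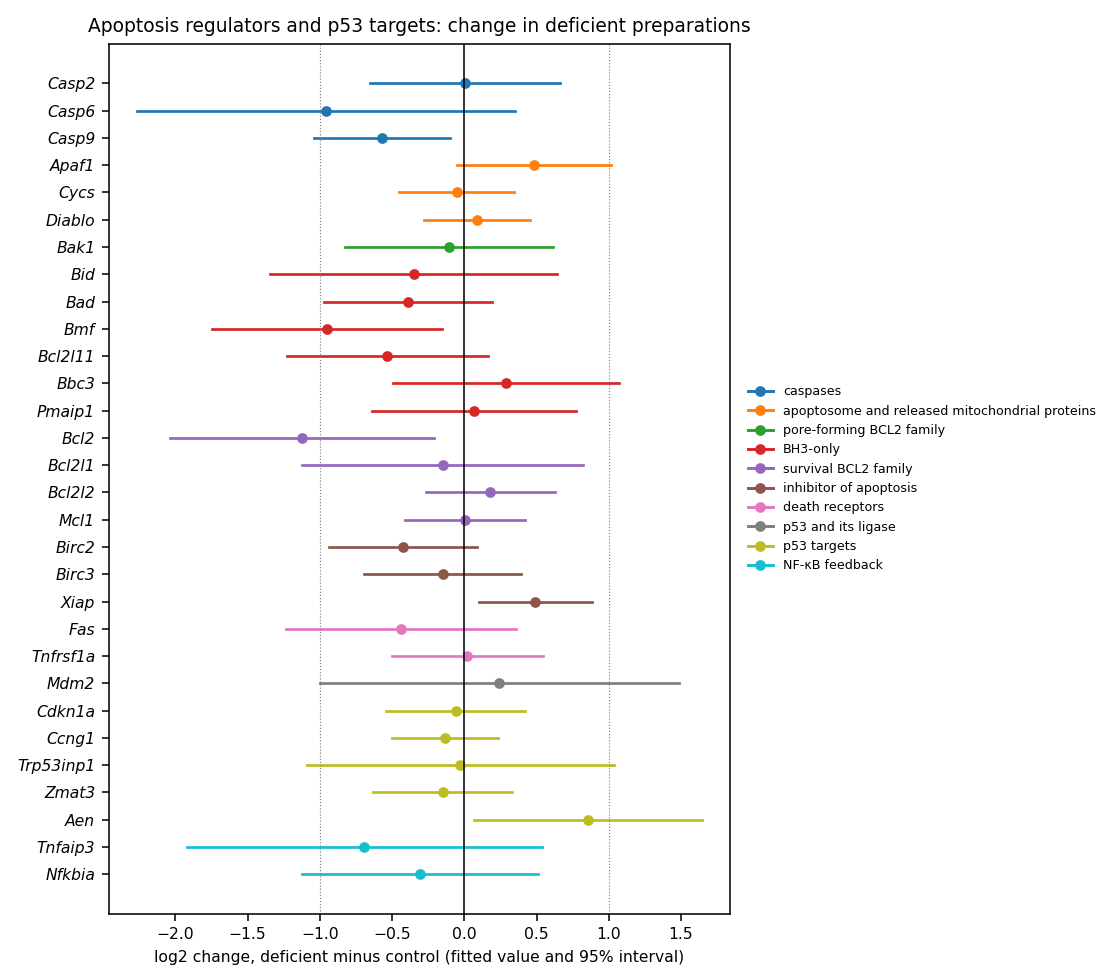
Fitted log2 change (horizontal axis, deficient minus control) of the 30 tested members, 1 per row, coloured by role, with points for the fit and lines for its 95% interval; dotted lines mark a change of 1 in either direction. Most intervals cross 0, and the points run from -1.12 (Bcl2) to 0.85 (Aen).

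Among the caspases and their activators, the initiator caspase-9 read lower and its scaffold Apaf1 higher. Casp9 read 7.10, 6.63 and 6.92 in the deficient arrays, against 7.69, 7.27 and 7.39 in the controls, a log2 change of -0.57 ± 0.20 (SE), limma adjusted p = 0.232. Every deficient value lay below every control. Apaf1, which binds released cytochrome c and recruits caspase-9, read 10.6, 10.4 and 10.4 in the deficient arrays and 9.55, 10.2 and 10.1 in the controls. Its change was 0.48 ± 0.22 (SE), limma adjusted p = 0.327, and it was 0.27 without control replicate 1, the lowest array. A second Apaf1 probe set also gave a positive change, 0.69, with groups that did not overlap.

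Casp6, an executioner caspase, stood apart in 1 mouse. It read 8.61, 10.6 and 10.8 in the deficient arrays, against 11.0, 10.8 and 11.1 in the controls. The groups did not overlap, but deficient replicate 1 lay far below the other two deficient arrays, and the change of -0.96 ± 0.55 (SE), limma adjusted p = 0.408, was -0.26 without it. Casp2, an initiator caspase linked to genotoxic stress, averaged 9.02 ± 0.35 in the deficient group and 9.01 ± 0.41 in the controls (SD, n = 3 each).

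The RNA of the mitochondrial proteins released during apoptosis was measured tightly and hardly differed. Cycs, which encodes cytochrome c, averaged 15.3 in both groups, and its interval ran from 0.73-fold to 1.27-fold. Its other probe sets above 5 differed in sign, with changes of 0.20 and -0.23. Diablo, the antagonist of inhibitor of apoptosis proteins, read 7.85, 7.85 and 8.07 in the deficient arrays and 7.92, 7.82 and 7.77 in the controls, and its interval ran from 0.825-fold to 1.37-fold. The pore former Bak1 read 10.4, 9.61 and 10.3 in the deficient arrays and 9.83, 10.7 and 10.0 in the controls, with the groups fully overlapping.

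The BH3-only genes, which sense stress and start the mitochondrial route, were mostly lower by mean, and 0 passed the test. Of the 6 tested, 4 were lower and 2 higher, with a median log2 change of -0.37. Their mean level relative to the control mean was -0.25, -0.18 and -0.50 on the deficient arrays. On the controls it was 0.24, -0.14 and -0.096. Deficient replicate 2 and control replicate 2 nearly coincided, and the mean includes Bmf, so no separation of the groups is read from it. Mean levels of the caspases were -0.77, -0.42 and -0.33 on the deficient arrays and 0.17, -0.26 and 0.087 on the controls, without overlap. Those of the wider apoptosis and p53 lists given further on did not overlap either, higher in the first and lower in the second. Bmf, which is known to be released from the cytoskeleton when cells detach, read 3.87, 4.95 and 4.96 in the deficient arrays, against 5.88, 5.43 and 5.31 in the controls. All deficient values lay under the level 5 and all controls above it, so Bmf met the filter through the controls alone. It is also part of the mean level of the BH3-only genes given above. The change of Bmf was -0.95 ± 0.34 (SE), limma adjusted p = 0.237. With values under 5 raised to 5 it was -0.54, and without deficient replicate 1, the lowest array, -0.58. The Bmf probe set is of a design that can match several transcripts.

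Bcl2l11, which encodes BIM, a BH3-only protein that limits lymphocyte survival, read 9.33, 8.46 and 8.46 in the deficient arrays and 9.14, 9.63 and 9.07 in the controls. Deficient replicates 2 and 3 lay below all controls and deficient replicate 1 among them, and the change was -0.53 ± 0.29 (SE), limma adjusted p = 0.393. A second probe set of this gene gave a larger difference, -1.03 ± 0.19 (SE), with groups that did not overlap and an adjusted p of 0.065 in a limma fit over all probe sets. The 2 BH3-only genes best known as p53 targets did not share a direction beyond their spread. Bbc3 (PUMA) read 6.10, 6.42 and 5.33 in the deficient arrays and 6.10, 5.39 and 5.49 in the controls. Pmaip1 (NOXA) read 13.7, 12.9 and 12.6 in the deficient arrays and 13.2, 12.8 and 13.0 in the controls, with an interval from 0.64-fold to 1.71-fold. Bid, which links death receptors to mitochondria, and Bad, which is held inactive by phosphorylation, had changes of -0.35 and -0.39 with overlapping groups. Bik, another BH3-only gene, stayed between 3.81 and 4.64 on all arrays.

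Of the 4 survival members tested, Bcl2 differed most. It read 6.57, 6.26 and 5.72 in the deficient arrays, against 7.94, 7.42 and 6.56 in the controls, a change of -1.12 ± 0.38 (SE), limma adjusted p = 0.228. The highest deficient value and the lowest control value nearly coincided, so the groups overlapped. A second probe set gave -1.05. BCL2 is abundant in mature lymphocytes, and the lymphocyte markers given above were lower in the same arrays. Their order among the deficient arrays was not that of Bcl2: the marker list was lowest in replicate 1, at -4.03, and highest in replicate 3, at -2.55, whereas Bcl2 was highest in replicate 1 and lowest in replicate 3. Among the controls both ran in the same order, the marker list at 0.091, -0.033 and -0.057. The part of lymphocyte RNA in the Bcl2 value was not tested.

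The survival genes of wider use in epithelium differed little. Mcl1, a short-lived survival protein that intestinal epithelium depends on, read 14.2, 13.9 and 13.8 in the deficient arrays and 13.9, 13.9 and 14.1 in the controls, and its interval ran from 0.75-fold to 1.34-fold. Its 6 probe sets did not share a direction, with changes from -0.42 to 0.48. Bcl2l2 (BCL-W) read 7.87, 7.81 and 7.79 in the deficient arrays and 7.72, 7.33 and 7.88 in the controls. Bcl2l1 (BCL-XL) ranged from 7.36 to 8.51 in the deficient arrays and from 7.48 to 8.80 in the controls, so its interval, 0.46-fold to 1.77-fold, included a 2-fold lower level.

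The inhibitors of apoptosis, ubiquitin ligases that restrain caspases or signal to NF-κB, split in direction. Xiap, a direct caspase inhibitor, read 12.1, 12.0 and 11.9 in the deficient arrays, against 11.4, 11.4 and 11.7 in the controls. Every deficient value was above every control, and the change of 0.49 ± 0.16 (SE), or 1.41-fold, had the smallest adjusted p of the members (limma adjusted p = 0.219). Of its other 3 probe sets above 5, 2 gave 0.59 and 0.47 and the third -0.03. Birc2 (cIAP1) read 9.32, 8.90 and 9.36 in the deficient arrays and 9.36, 9.92 and 9.58 in the controls, a change of -0.42 ± 0.22 (SE), limma adjusted p = 0.366. Its groups did not overlap, with deficient replicate 3 just under control replicate 1. Birc3 (cIAP2), an NF-κB target, is given with the feedback genes further on.

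**Figure D2:**
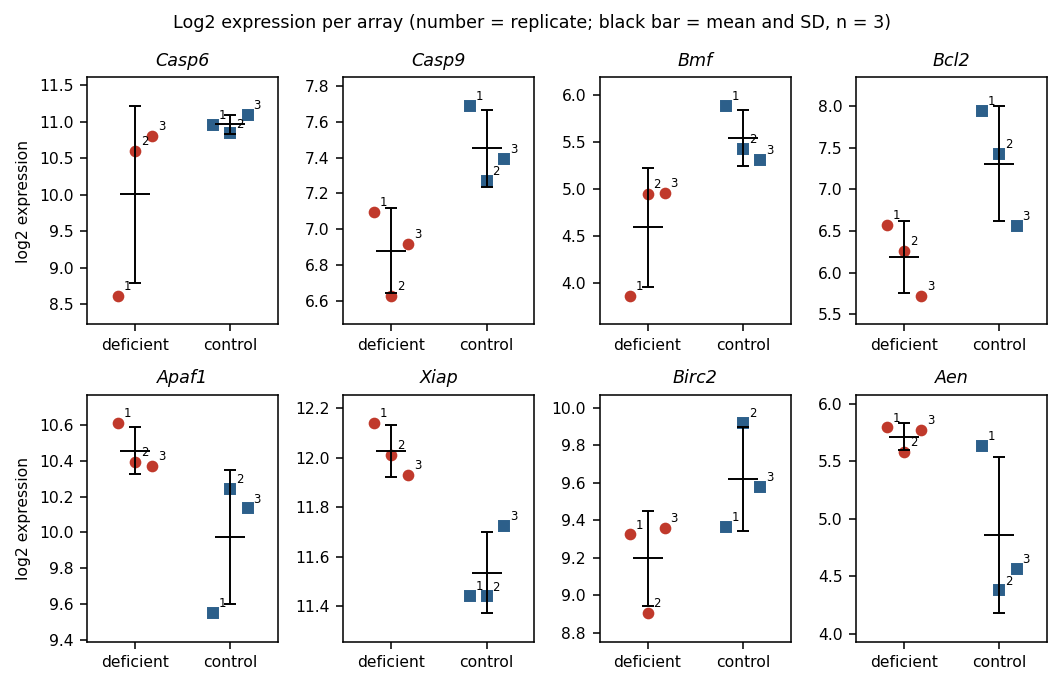
Log2 expression on each array (vertical axis, scaled per gene) of 8 members, deficient arrays as red circles on the left and controls as blue squares on the right of each panel, with the replicate number beside each point and the mean and SD in black. Casp6, Casp9, Bmf and Birc2 lie lower and Apaf1 and Xiap higher without overlap, while Bcl2 and Aen overlap through 1 array.

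Of the death receptors, Fas and the TNF receptor Tnfrsf1a were measurable. Fas read 6.26, 6.89 and 7.59 in the deficient arrays and 7.26, 7.20 and 7.59 in the controls, a change of -0.44 ± 0.34 (SE), limma adjusted p = 0.528. The lowest value was again that of deficient replicate 1, and the change was -0.11 without it and -0.77 without deficient replicate 3. Tnfrsf1a read 10.3, 10.2 and 10.2 in the deficient arrays and 9.75, 10.4 and 10.4 in the controls. Tnfrsf10b, the mouse TRAIL receptor, stayed between 2.40 and 2.87 on all arrays, at the floor.

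The p53 branch gave no common change. Cdkn1a, the cell cycle inhibitor p21 and the p53 target most often used to read p53 activity, read 12.5, 11.9 and 12.1 in the deficient arrays and 12.1, 12.5 and 12.1 in the controls. Its change was -0.06 ± 0.20 (SE) with an interval from 0.69-fold to 1.34-fold (limma adjusted p = 0.894), so a 2-fold difference in either direction lay outside that interval. A second probe set gave 0.23. The promoter of this gene is shown because it holds a match to a form of the p53 element, a pair of sites whose cores read CATG. It is the 250 bases before the farthest upstream of 2 starts of Cdkn1a in RefSeq, GRCm38.p6 chr17:29090729-29090978, plus strand, in lower case with the match to CATG, any 6 bases and CATG in capitals, at 48 to 35 bases before the start.

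Cdkn1a: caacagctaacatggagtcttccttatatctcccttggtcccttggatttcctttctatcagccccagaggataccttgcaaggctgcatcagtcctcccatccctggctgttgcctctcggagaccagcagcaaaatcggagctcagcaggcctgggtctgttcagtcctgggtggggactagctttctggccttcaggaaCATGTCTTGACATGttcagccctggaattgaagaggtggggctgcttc

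The searched letters read the same on both strands and were found in 0.490% of 32851 windows of that length in the table. Of the 33 listed symbols with a window there, Cdkn1a alone held a match, in 1 of their 48 windows. Such a match describes the sequence and not binding in these cells, and other p53 elements that lie outside the window or differ from these letters were not searched. These letters were chosen with the values and matches known.

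Mdm2, the ubiquitin ligase that p53 induces to limit itself, gave different pictures by probe set. The one used here read 9.66, 7.71 and 9.19 in the deficient arrays and 8.19, 9.22 and 8.43 in the controls, a spread within groups that exceeded the difference between them, and its interval ran from 0.50-fold to 2.80-fold. A second Mdm2 probe set gave 0.32 ± 0.21 (SE), with every deficient value above every control. Aen, a nuclease induced by p53, was the 1 target of the 5 tested that was higher by mean. It read 5.79, 5.58 and 5.77 in the deficient arrays, against 5.63, 4.38 and 4.56 in the controls, a change of 0.85 ± 0.33 (SE), limma adjusted p = 0.272. Control replicate 1 lay within the deficient values, and the other two controls lay under the level 5, so Aen met the filter through the deficient arrays. With values under 5 raised to 5 its change was 0.50. Its other 3 probe sets did not reach 5 on at least 3 arrays.

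The other targets showed smaller differences or a wide spread. Ccng1, cyclin G1, read 9.82, 9.81 and 9.88 in the deficient arrays and 10.0, 10.1 and 9.80 in the controls, with an interval from 0.71-fold to 1.18-fold. Its other 2 probe sets ran the other way, at 0.46, with groups that did not overlap, and at 0.32. Zmat3, an RNA-binding protein, read 5.07, 5.57 and 5.19 in the deficient arrays and 5.45, 5.63 and 5.21 in the controls, close to the level 5. Trp53inp1, a p53-induced nuclear and autophagy protein, read 11.1, 9.37 and 9.46 in the deficient arrays and 10.1, 10.1 and 9.80 in the controls. Deficient replicate 1 was the highest of the 6 and the other deficient arrays the lowest, so the mean change of -0.03 joins values on both sides of all controls. Phlda3, an AKT inhibitor, and Eda2r, a TNF receptor family member, stayed at the floor, at 2.13 to 2.37 and 2.70 to 2.84.

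The NF-κB feedback genes shared their lowest arrays. Nfkbia, which encodes the inhibitor IκBα, read 14.6, 13.3 and 13.6 in the deficient arrays, against 14.3, 13.8 and 14.3 in the controls. Tnfaip3, which encodes the ubiquitin-editing enzyme A20, read 10.9, 9.30 and 9.25 in the deficient arrays, against 10.8, 9.74 and 10.9 in the controls. Birc3 read 10.2, 9.49 and 9.41 in the deficient arrays and 9.90, 9.77 and 9.83 in the controls. In all 3 genes deficient replicates 2 and 3 were the lowest of the 6 arrays, and deficient replicate 1 lay above the control range in Nfkbia and Birc3 and within it in Tnfaip3. The changes were -0.31 ± 0.35, -0.69 ± 0.52 and -0.15 ± 0.23 (SE), with limma adjusted p of 0.669, 0.518 and 0.759 for Nfkbia, Tnfaip3 and Birc3. With 1 array left out they ran between -0.68 and -0.039, -1.23 and -0.41, and -0.38 and -0.012, the largest in size without deficient replicate 1. A second Birc3 probe set gave 0.11.

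The shared lowest arrays were not particular to these 3 genes and held for 8 of 30 members, given below. The promoters of Nfkbia, Tnfaip3 and Birc3 are shown because they belong to NF-κB-responsive genes. They are the 250 bases before the RefSeq start (for Tnfaip3 the farthest upstream of 2), all on the minus strand and all of GRCm38.p6, at chr12:55492648-55492897 for Nfkbia, chr10:19015411-19015660 for Tnfaip3 and chr9:7873171-7873420 for Birc3. Capitals mark a match on either strand to GGG, any 3 bases and TTCC, a loose form of the κB element.

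Nfkbia: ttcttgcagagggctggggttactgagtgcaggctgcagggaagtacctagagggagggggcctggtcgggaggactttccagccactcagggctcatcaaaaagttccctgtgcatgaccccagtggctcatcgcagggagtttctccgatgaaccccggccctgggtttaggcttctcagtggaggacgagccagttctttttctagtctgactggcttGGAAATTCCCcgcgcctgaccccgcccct

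Tnfaip3: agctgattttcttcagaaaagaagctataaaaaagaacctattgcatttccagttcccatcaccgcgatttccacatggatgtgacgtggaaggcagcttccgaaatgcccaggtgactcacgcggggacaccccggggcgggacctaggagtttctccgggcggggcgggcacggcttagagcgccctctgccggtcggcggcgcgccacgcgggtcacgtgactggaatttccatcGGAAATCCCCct

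Birc3: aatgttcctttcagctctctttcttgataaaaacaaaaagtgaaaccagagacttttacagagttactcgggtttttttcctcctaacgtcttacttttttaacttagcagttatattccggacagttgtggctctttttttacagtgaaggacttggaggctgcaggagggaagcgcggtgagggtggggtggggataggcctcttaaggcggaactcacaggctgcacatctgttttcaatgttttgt

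Nfkbia and Tnfaip3 each held 1 match, on the opposite strand, reading GGAAATTCCC at 29 to 20 bases and GGAAATCCCC at 12 to 3 bases before the start. The letters were not in the Birc3 window, which says nothing of sites elsewhere. They were found in 4.65% of the 32851 windows and in 7 of the 48 windows of listed symbols. Those 7 belonged to 6 of the 33 listed symbols with a window there, which besides Nfkbia and Tnfaip3 were Bbc3, Bcl2l1, Eda2r and Mcl1. These letters were chosen after the values and matches were seen.

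The same 2 arrays were lowest in early response genes, which are induced within minutes of a stimulus. Deficient replicates 2 and 3 were the 2 lowest arrays for Atf3, Egr1, Fos and Jun, 4 of the 9 tested genes of a list of epithelial stress genes. The rest of that list, Reg3g, Reg3b, Hspa1a, Hspa1b and Ddit3, did not have this order. The mean level of the whole list was -0.15 and 0.11 on deficient replicates 2 and 3, and lowest on control replicate 2, at -0.61. Egr1 read 14.0, 12.9 and 13.3 in the deficient arrays, against 14.5, 14.0 and 14.3 in the controls. In Egr1 and Fos deficient replicate 1 also lay just below every control, at 14.01 against 14.03 and 14.31 against 14.35. In Atf3 and Jun it did not. Among the members the order with deficient replicates 2 and 3 lowest held for 8 of 30: Nfkbia, Tnfaip3 and Birc3, then Bcl2, Bcl2l11, Casp9, Mcl1 and Trp53inp1. Over all genes tested it held for 9.31%, and this order was picked out after the values were seen. Their part in the members' values was not tested.

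**Figure D3:**
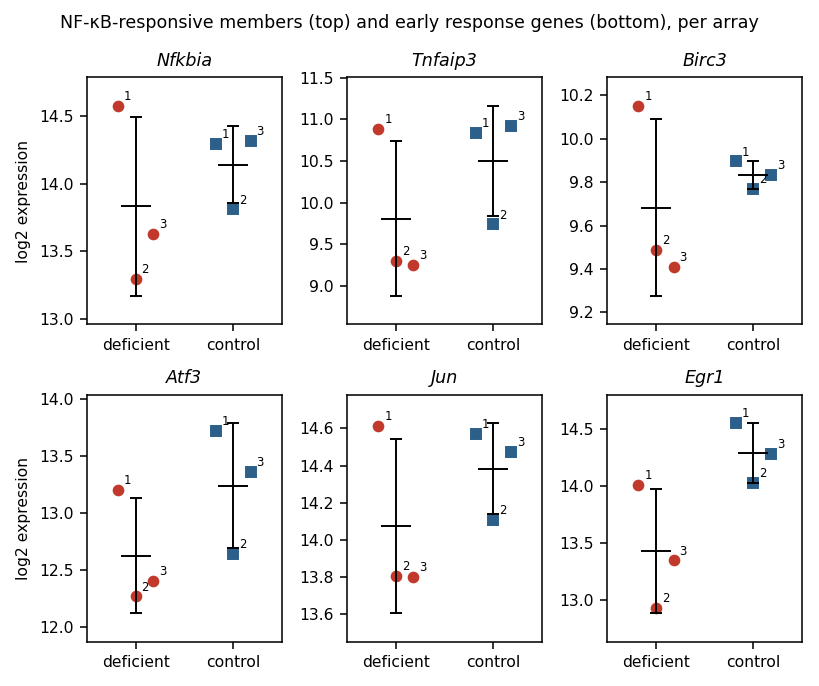
Log2 expression on each array (vertical axis, scaled per gene) of the NF-κB-responsive members Nfkbia, Tnfaip3 and Birc3 above and the early response genes Atf3, Jun and Egr1 below, deficient arrays as red circles on the left and controls as blue squares on the right, numbered by replicate, with mean and SD in black. In all 6 genes deficient replicates 2 and 3 are the lowest arrays.

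The spread among deficient mice was wide for these genes. The median SD of the members was 0.39 over the deficient arrays and 0.28 over the controls, beside 0.26 and 0.24 for all genes tested. Deficient replicate 1 was the highest array for 10 members and the lowest for 6, so that 53.3% of the members had an extreme there, beside 48.5% of all genes. Control replicate 2 was the highest for 9 members and the lowest for 5, or 46.7% of the members beside 45.7% of all genes. That array also stood apart in ileum markers, whose mean level was -1.47 there and 0.44 and 1.03 on the other controls. Proliferation markers were spread over all controls, at 0.94, -0.85 and -0.094 on replicates 1, 2 and 3. Without deficient replicate 1 the groups did not overlap for 13 of 30 members, 2 higher and 11 lower, or 43.3% against 34.9% of all genes, and still 0 passed the test. The median change was -0.19 without that array, -0.0012 without deficient replicate 2 and -0.04 without control replicate 2.

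**Figure D4:**
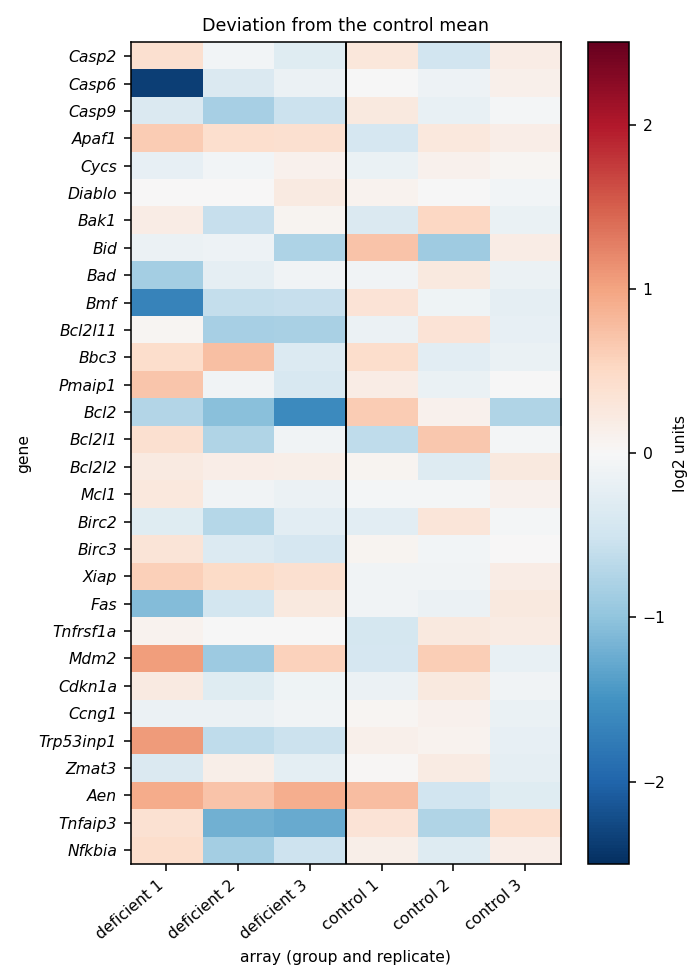
Deviation of each tested member (rows) from its control mean on each array (columns, deficient left of the line and control right), in log2 units from blue (lower) to red (higher). Deficient replicate 1 differs in sign from deficient replicates 2 and 3 for Trp53inp1, Tnfaip3, Nfkbia and Birc3, and Casp6 is low in deficient replicate 1.

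Other genes of the death machinery, from a list that held none of the 39 symbols, likewise gave 0 calls among 24 tested. By mean 15 were higher and 9 lower, with a median of 0.07, and at an unadjusted p under 0.05 there were 5 higher and 1 lower of the 24, beside 5.6% and 11.3% of all genes. The higher ones included 2 genes of the death receptor route. Casp8, the initiator caspase of death receptors, read 12.0, 11.5 and 11.0 in the deficient arrays, against 10.7, 10.2 and 11.0 in the controls, a change of 0.90 ± 0.30 (SE), limma adjusted p = 0.223. Tradd, the adaptor of the TNF receptor, read 11.1, 10.8 and 10.5 in the deficient arrays, against 9.83, 10.2 and 10.2 in the controls, a change of 0.73 ± 0.22 (SE), limma adjusted p = 0.182. Neither gene's groups overlapped.

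The other higher genes were Bcl2l14 at 0.70, the pore-forming relative Bok at 1.11 and Birc5 (survivin) at 1.24, with limma adjusted p between 0.197 and 0.270. Birc5 also belongs to the proliferation markers, all 13 of which were higher by mean with 0 past the test. The lower one was Tnfsf10, the death ligand TRAIL, which read 6.59, 7.58 and 8.31 in the deficient arrays, against 8.91, 8.86 and 9.23 in the controls. Its change was -1.51 ± 0.41 (SE), limma adjusted p = 0.162, and without deficient replicate 3 it passed, at -1.91 with an adjusted p of 0.0472. Both Tnfsf10 and the lymphocyte markers were lowest in deficient replicate 1, and the part of lymphocyte RNA in the Tnfsf10 value was not tested. Fadd, the adaptor that joins Casp8 to the receptor, and Cflar, which blocks it, had changes of 0.0067 and 0.24, and both were named after their values were seen.

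A second list, of further genes of the p53 pathway, gave 0 calls among 24 tested, with a median of -0.20. By mean 8 were higher and 16 lower, or 66.7% lower beside 54.6% of all genes. At an unadjusted limma p under 0.05 there were 2, or 8.33%, beside 16.9% of all genes. Groups did not overlap for 5, or 20.8%, beside 25.7%. Gadd45a, a growth arrest gene induced by p53 and by stress kinases, read 11.1, 10.0 and 10.9 in the deficient arrays, against 11.9, 11.6 and 11.7 in the controls. Its change was -1.06 ± 0.30 (SE), limma adjusted p = 0.164, and the groups did not overlap. Ddb2, a DNA damage recognition protein, had a change of -0.70 ± 0.29 (SE), limma adjusted p = 0.285, with overlapping groups. Perp, a desmosomal protein induced by p53, read 12.2, 12.5 and 12.3 in the deficient arrays and 12.4, 12.6 and 12.5 in the controls. No gene of this list was higher at an unadjusted p under 0.05.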

How the data were processed

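Total RNA of 6 intestinal epithelial cell preparations was measured on Affymetrix arrays. The authors deposited log2 values for each probe set on every array; per the submitters' processing notes Partek 6.5 and GCRMA were used, in an order not given in the sources used here. The log2 scale was read from the values, 0.42 to 16.4 with array medians of 3.26 to 3.33. Scanner files were not used here; precision is limited by the number of arrays.

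Of 45101 probe sets, 64 controls were left out, and 34945 of the others had 1 symbol in the platform annotation, 932 several and 9160 none. Each gene took the probe set with the highest mean. Genes above 5 on at least 3 arrays (8893) were fitted with limma 3.58.1 in R 4.3.3 (lmFit, eBayes, no covariate), with Benjamini-Hochberg adjustment over all of them and a threshold of 0.05. The script was tested on simulated data. Changes are deficient minus control with the standard error of the fit, and group errors are SDs. The members and gene lists were chosen with earlier results of these data known. Genes were named with all 6 values where p was under 0.05, where groups did not overlap or where the change was among the 2 largest of a role; other genes given in full, Cdkn1a among them, were picked with their values known. From the wider lists, genes with p under 0.05 were named. The alternatives concern moderation, array weights, filter, normalization, probe sets, replicate block and the arrays used.

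Replicate numbers are shared by the groups in the titles, but the labels do not say that they pair mice.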

Additional observations from a re-analysis of the deposited data

How the results depend on the processing

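No member passed the test in any alternative run; the smallest adjusted p over the settings was 0.0535, without control replicate 1. The count of members at an unadjusted p under 0.05 ran from 1 to 9, beside 10.8% to 21.1% of all genes; the 9 (30% of members, 14.2% of all genes) came without deficient replicate 1. Over all genes, 293 were called with array weights, 85 with no filter, 117 with the mean over probe sets, and 93 to 239 when 1 array was left out. The members without overlap numbered 7 to 13 when 1 array was left out (23.3% to 43.3%, beside 31.9% to 39.6% of all genes), and their median change ran from -0.19 to -0.0012, or was -0.022 with the mean over probe sets. With the replicate number as a block (replicate block), 141 of all genes and 0 members were called; deviations of same-numbered arrays correlated at 0.05, -0.29 and 0.00, so the numbers are not taken as pairs.

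Of 549 values of single genes under alternatives, 505 kept direction and side of the threshold, 43 changed sign, all for genes that did not pass the test, and 1 passed (Tnfsf10, given above). With 1 array left out, these log2 changes spanned 0: Bak1 -0.28 to 0.15, Bcl2l1 -0.47 to 0.19, Bid -0.80 to 0.0044, Casp2 -0.23 to 0.16, Cdkn1a -0.20 to 0.061, Cycs -0.14 to 0.019, Mcl1 -0.12 to 0.081, Mdm2 -0.16 to 0.81, Pmaip1 -0.25 to 0.30, Tnfrsf1a -0.20 to 0.14, Trp53inp1 -0.58 to 0.27. Others kept their sign but moved by over 1.5 times: Bad -0.54 to -0.16, Bbc3 0.051 to 0.60, Bcl2l11 -0.82 to -0.36, Bcl2l2 0.023 to 0.30, Birc2 -0.55 to -0.27, Bok 0.72 to 1.42, Ccng1 -0.21 to -0.074, Diablo 0.014 to 0.13, Zmat3 -0.30 to -0.047. With array weights the sign turned for Casp2 -0.23, Pmaip1 -0.11, Mcl1 -0.13, Tnfrsf1a -0.095 and Zmat3 0.039. With quantile normalization it turned for Mcl1 -0.0057, and with the mean over probe sets for Mcl1 -0.17, Cdkn1a 0.086 and Ccng1 0.22. Single other probe sets gave the opposite sign for Cycs 0.20; Mcl1 -0.42, -0.40, -0.34, -0.35; Birc3 0.11; Xiap -0.035; Cdkn1a 0.23; Ccng1 0.46, 0.32; Bcl2l14 -0.018. The cause was not tested.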
